A study of Mus musculus with 4 samples.

Results

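Klrc1+ T cells were the T cells of the bone marrow (BM) in which at least 1 transcript of Klrc1, the gene of the inhibitory receptor NKG2A, was counted. They were picked from droplet single-cell RNA-seq (scRNA-seq) libraries by raw counts of unique molecular identifiers (UMIs, 1 per captured transcript). Cells with 300 genes or more and no more than 20% of UMIs from mitochondrial genes were kept, and a kept cell was a member with Cd3d, Cd3e and Cd3g summing to at least 2 UMIs, Klrc1 at 1 or more, Foxp3 at 0 and the neutrophil genes Mmp8, Mmp9 and Cxcr2 summing to at most 1. Of 39743 kept cells, 442 met the rule, out of 1215 cells that met it apart from Klrc1 (gated T cells). The 4 libraries, each from 1 mouse, came from C57BL/KawRij mice that had received luciferase-tagged 5TGM1 mouse myeloma cells intravenously (the 5TMM model). The mice were 6 weeks old at inoculation, and 3 weeks later they were given vehicle (n = 2) or 10 mg/kg purinostat mesylate (PM, n = 2), an inhibitor of class I and IIb histone deacetylases. BM was taken 24 h after treatment and its red cells were lysed. All mice carried the tumor, so no group shows healthy marrow. The members numbered 87 and 69 in vehicle replicates 1 and 2, and 160 and 126 in PM replicates 1 and 2. Their summed UMIs were 376109, 334875, 761869 and 594101 in the same order.

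NKG2A pairs with CD94, the product of Klrd1, and the pair binds a nonclassical MHC class I molecule and passes an inhibitory signal. NKG2A is known from natural killer (NK) cells and from some CD8+ and γδ T cells. A T cell receptor is built either from an α and a β chain, with the constant genes Trac and Trbc1 or Trbc2, or from a γ and a δ chain, with the Tcrg-C genes and Trdc. Conventional killer T cells carry αβ receptors with the CD8αβ coreceptor, encoded by Cd8a and Cd8b1. γδ T cells and other innate-like T cells respond fast, often share receptors with NK cells, and mostly lack CD8αβ. Transcripts of Tcrg-C genes are also made by many αβ T cells, so Trdc is the more specific of the γδ genes.

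The Klrc1 gene lies at chr6:129666015-129678973 on the minus strand of GRCm38, next to Klrc2 at chr6:129647496-129660689 on the same strand. In the transcripts, 18.2% of the windows of 91 bases of Klrc1 also occur in Klrc2, so reads of these neighbours are not fully separable. The selection used the levels of Klrc1, which are therefore given as a description. Of the members, 101 had 1 Klrc1 UMI, 79 had 2 and 262 had 3 or more. PM replicate 1 held 54 of the members with 1 UMI, and its median was 2 UMIs against 3 in vehicle replicate 2 and 4 in each of the other mice. Just outside the rule were 32 cells with Klrc1 and a single Cd3 UMI, 160 cells with Klrc1 and no Cd3 UMI, and 60 cells set aside for neutrophil transcripts. No Klrc1+ cell was set aside for Foxp3. Klrc1 was seen in 0.209% of 4311 B cells (Cd79a and Cd79b at 3 or more UMIs, Cd3 at 0), which do not express it, and in 55.0% of 180 NK cells (Cd3 at 0, Ncr1 and Klrb1c at 2 or more UMIs). The median depth of the members was between 3698 and 4185 UMIs per mouse, that of the B cells between 2484 and 3226.

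The label of innate-like T cells was held against known markers. Cd3 was present by selection, and Trbc1 or Trbc2 was found in 95.7% of the members. Zbtb16, which encodes the transcription factor PLZF of many innate-like T cells, had a UMI in 13 members (2.94%), against 1.25% of B cells. Ncr1, an activating receptor of NK cells, was seen in 9.73% of the members and in 77.2% of NK cells, and Gzma, the granzyme A gene, in 3.62% and 65.0%. Other markers went the other way. Ncr1 or Klrb1c, a second NK receptor gene, was counted in 66.2% of the members with Trdc. It was counted in 27.5% of those with Cd8a or Cd8b1 but no Trdc, and in 68.3% of those with neither. Of 8 tested genes from a list of innate-like T cells, 4, Cd244a among them, were called higher than in gated T cells without Klrc1, and 1 lower. With markers in both directions, the members are called Klrc1+ T cells here, by the rule that chose them. These shares count cells with a UMI, not cells that express the gene, and all intervals and limits below cover counting error alone.

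Most members carried transcripts of a γδ constant gene, but fewer carried that of the δ chain. Trdc or a Tcrg-C gene was counted in 301 of 442 members (68.1%, exact 95% binomial interval 63.5% to 72.4%). A Tcrg-C gene was counted in 64.9%, whereas Trdc was counted in 133 members (30.1%). Trac was counted in 236 members (53.4%, 48.6% to 58.1%) and Cd8a in 152 (34.4%), and 112 members (25.3%) held both Cd8a and Trac.

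Trdc seldom met Trac or Cd8a in the same cell, but mostly met Trbc. Trdc and Trac were both counted in 20 members (4.52%), and Trdc and Cd8a in 11 (2.49%). Trbc1 or Trbc2 was counted in 118 of the 133 members with Trdc (88.7%). Tcrg-C transcripts were less exclusive: 129 members (29.2%) held Trac together with a Tcrg-C gene, and 168 (38.0%) held a Tcrg-C gene without Trdc. In 37 members (8.37%) neither Trdc, nor a Tcrg-C gene, nor Trac was counted, and 1 member had no constant gene at all. Cd4, the coreceptor of helper T cells, was counted in 5 members. Of the 43 members with Ncr1, none lacked Trac, Trdc and all Tcrg-C genes together. Variable genes were too sparse to type the receptors, with a Tcrg-V gene in 8.14% of the members, a Trav gene in 6.11% and a Trdv gene in 1.58%.

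By mouse, Trdc or a Tcrg-C gene was found in 74.7% and 71.0% of the members of vehicle replicates 1 and 2, and in 69.4% and 60.3% of those of PM replicates 1 and 2. Both PM values lay below both vehicle values (72.9% ± 2.61 against 64.8% ± 6.40, SD, n = 2 each), and the exact two-sided permutation test gave p = 0.333, the smallest that 2 mice against 2 allow. The groups overlapped with at least 2 Klrc1 UMIs (78.1% and 70.7% against 75.5% and 66.3%), with cells thinned to 1500 UMIs (57.1% and 58.3% against 69.2% and 42.4%) and under stricter cell limits (500 genes, 10% mitochondrial UMIs). Cd8a together with Trac was found in 20 of 87, 14 of 69, 34 of 160 and 44 of 126 members in the same order, so that PM replicate 2 stood above the other mice and the groups overlapped. In CPM, here a gene's UMIs relative to all UMIs of the members of a mouse with no further scaling, Trdc stood at 181 and 364 with vehicle and 280 and 216 after PM, and Tcrg-C2, a γ constant gene, at 205 and 197 against 180 and 187. Tcrg-C1, another γ constant gene, stood at 90.4 and 65.7 against 61.7 and 37.0, from 34, 22, 47 and 22 UMIs. Trac stood at 269 and 224 against 231 and 330. Cd8a stood at 173 and 128 against 161 and 244. Of these genes, Tcrg-C1 and Tcrg-C2 were lower in both PM mice than in both vehicle mice, by little for Tcrg-C2, and the others overlapped. Tcrg-C1 did not pass the test between PM and vehicle given below (-0.59 ± 0.32 on the log2 scale, edgeR adjusted p = 0.792).

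**Figure D1:**
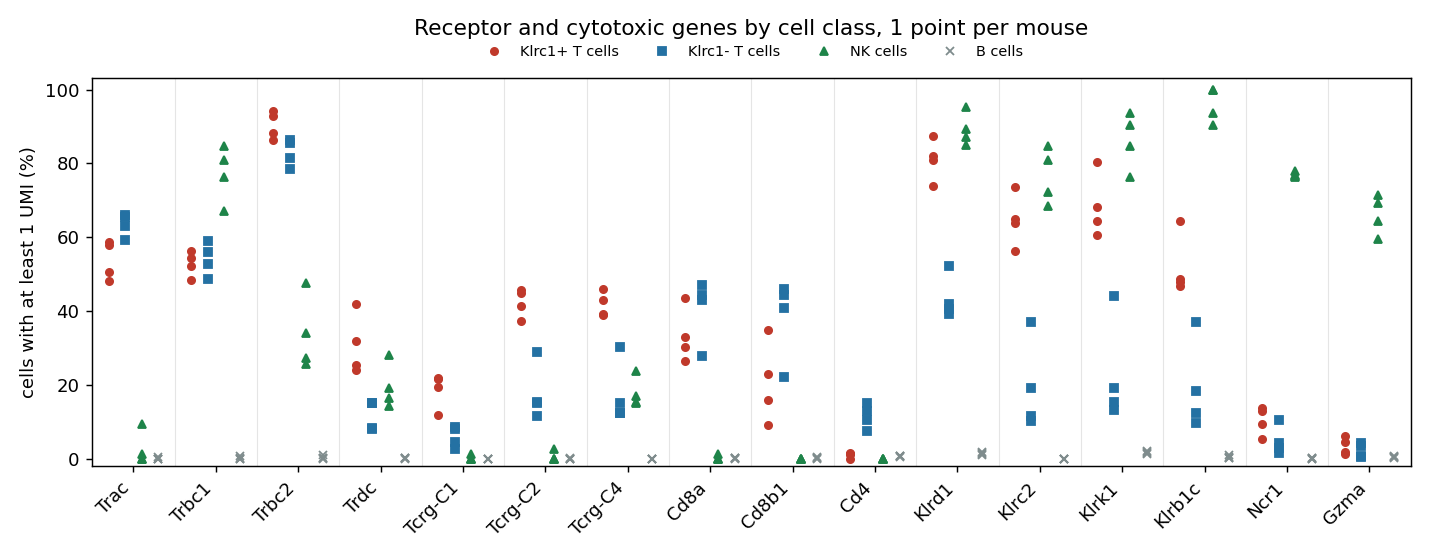
The share of cells with at least 1 UMI (vertical axis, %) is plotted for receptor, coreceptor and cytotoxic genes in Klrc1+ T cells, Klrc1- T cells, NK cells and B cells, with 1 point per mouse (n = 4). Trac and Cd8a are near 0 in NK cells, Ncr1 and Gzma are low in both kinds of T cell, and B cells are near 0 throughout.

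The remaining 773 gated T cells, in which no Klrc1 UMI was counted (Klrc1- T cells), served as the first comparison. Trdc was found in 9.83% of them against 30.1% of the members, and at an equal depth of 1500 UMIs per cell in 6.71% against 24.3%. Any Tcrg-C gene was found in 23.7% against 64.9%. Trac was more frequent among them, at 63.8% against 53.4%, as was Cd8b1, at 42.3% against 22.6%. For NK cells, the corresponding shares were 1.67% for Trac and 0% for Cd8b1, while Trdc was found in 19.4% (9.30% at equal depth) and Tcrg-C4, another γ constant gene, in 16.7%. Trdc was found in about 0.2% of B cells.

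The members were therefore split into 3 classes by UMIs alone: 133 Trdc+ members, 167 members without Trdc but with Cd8a or Cd8b1 (Trdc- Cd8+) and 142 with neither (Trdc- Cd8-). The Trdc+ class took 24.1% and 42.0% of the members with vehicle and 31.9% and 25.4% after PM (33.1% ± 12.7 against 28.6% ± 4.58, SD, n = 2 each), with overlap between the groups (exact permutation p = 1). The Trdc- Cd8+ class took 27.6% and 30.4% against 35.6% and 51.6% (29.0% ± 2.01 against 43.6% ± 11.3). Both PM mice were higher, at the smallest possible exact permutation p of 0.333, but this separation depended on the gate. With at least 2 Klrc1 UMIs the class took 30.1% and 31.0% against 30.2% and 46.2%, and with cells thinned to 1500 UMIs 16.1% and 13.9% against 12.3% and 37.9%, so that PM replicate 2 alone stood above the vehicle mice. The Trdc- Cd8- class took between 27.5% and 48.3% of the members in the vehicle mice, 32.5% in PM replicate 1 and 29 of 126 in PM replicate 2. At this depth the counts can miss a transcript that a cell expresses, so the classes without Trdc or Cd8 may hold cells of the other classes.

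Trac was counted in 20 of the 133 Trdc+ members, in 77.2% of the Trdc- Cd8+ members and in 61.3% of the Trdc- Cd8- members. A Tcrg-C gene was counted in 89.5%, 40.1% and 71.1% of the same classes. The NK receptor genes Ncr1 or Klrb1c (the latter encoding NK1.1) were counted in 66.2%, 27.5% and 68.3%. The Trdc- Cd8- members thus shared Trac with the Cd8+ class in most of their cells and NK receptor genes with the Trdc+ class, and 56 of them (12.7% of all members) held Trac and Ncr1 or Klrb1c in the same cell. Trac was found in the Trdc- Cd8+ class in 87.5% and 85.7% of cells with vehicle and in 64.9% and 81.5% after PM.

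**Figure D2:**
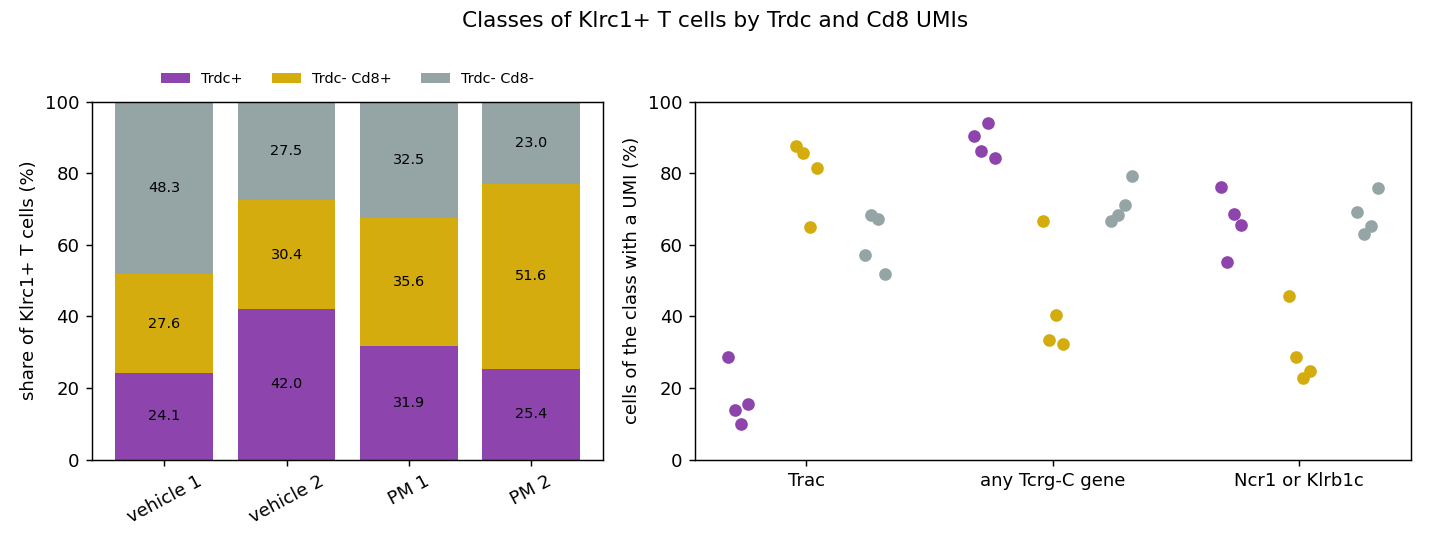
The left panel stacks the 3 classes of Klrc1+ T cells as shares (%) in each mouse, and the right panel gives the share of each class (%, same colours) with a UMI of Trac, of any Tcrg-C gene and of Ncr1 or Klrb1c, with 1 point per mouse from left to right vehicle 1, vehicle 2, PM 1 and PM 2. Trac was lowest in the Trdc+ class in every mouse, and the Trdc- Cd8+ class had the largest share of members, 51.6%, in PM replicate 2.

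The Trdc+ and Trdc- Cd8+ members differed in a small set of genes beyond those that defined them. UMIs were summed by class and mouse and tested with edgeR's quasi-likelihood test, the mouse as a block. Levels given as scaled CPM were scaled between libraries by TMM, ± is the SD over 4 mice for a level and the standard error for a log2 fold change, and a gene was called with a Benjamini-Hochberg adjusted p under 0.05 and a log2 fold change beyond 0.5. Of 2277 genes tested, 16 were called higher in Trdc+ members (0.703%) and 10 lower (0.439%). These included Trdc, Cd8a and Cd8b1, which set the classes and are no finding. The neutrophil markers summed to 29196, 1506, 3285 and 2212 CPM in the Trdc+ members of vehicle replicates 1 and 2 and PM replicates 1 and 2, and to 1803, 1261, 9182 and 1979 in the Trdc- Cd8+ members. Without the cells in which neutrophil or plasma cell markers took over 5% of the UMIs, 46 genes were called. In sums over cells, fewer expressing cells and fewer transcripts per cell cannot be told apart.

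Among receptor genes, Trac was lower in Trdc+ members. It stood at 83.2, 41.8, 42.3 and 91.2 scaled CPM in vehicle replicates 1 and 2 and PM replicates 1 and 2, against 472, 610, 421 and 606 in the Trdc- Cd8+ members, with no overlap (log2 fold change -3.04 ± 0.24, edgeR adjusted p = 9.66e-09). Tcrg-C4 was higher, at 333, 324, 574 and 517 against 157, 54.2, 64.1 and 76.3 (2.47 ± 0.28, edgeR adjusted p = 4.35e-06). Tcrg-C1 (2.02 ± 0.44) and Tcrg-C2 (1.09 ± 0.26) were also called higher, the latter in 3 of 4 mice, and Trbc2 lower (-0.79 ± 0.17). Of 6 constant genes tested, 3 were thus higher and 2 lower.

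Of 8 killer-cell lectin-like receptor (KLR) genes tested, 2 were called higher in Trdc+ members. Klrb1c stood at 504 ± 98.7 scaled CPM against 161 ± 57.5 (log2 fold change 1.79 ± 0.21), and Klrb1f, another gene of the same family, at 176 ± 69.6 against 53.1 ± 18.1 (1.80 ± 0.31). Klrd1 (0.47 ± 0.16), Klrk1 (0.05 ± 0.17), which encodes the activating receptor NKG2D, and Klrc2 (0.35 ± 0.18) were not called. Other genes called higher were Spry2, an inhibitor of growth factor signaling (354 ± 156 against 108 ± 56.9), Wls, which is needed for Wnt secretion (183 ± 35.4 against 53.6 ± 30.9), Cd244a, the receptor 2B4 of NK cells (log2 fold change 1.40 ± 0.33), Fcer1g, a signaling adaptor (0.81 ± 0.20), and Id2, a regulator of innate lymphoid cells (0.63 ± 0.14).

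Genes called lower in Trdc+ members included Themis, a signaling protein of αβ thymocyte selection (39.0 ± 35.6 against 185 ± 65.2 scaled CPM), Zeb2, a transcription factor of effector T cells (40.9 ± 19.0 against 168 ± 43.4), and Ccr2, a chemokine receptor (189 ± 123 against 451 ± 149, lower in 4 of 4 mice). Racgap1, needed for cell division, was lower as well (-1.42 ± 0.33), as were Npm1, a nucleolar protein (-0.55 ± 0.13), and Psma7, a proteasome subunit (-0.83 ± 0.21). Of 7 cytotoxic genes and 18 genes of T cell signaling tested, none was called. Of the 21 genes named by rule, 6 were called whichever mouse was left out, namely Ccr2, Klrb1c, Spry2, Tcrg-C4, Trac and Wls, and 3 of them, Klrb1c, Tcrg-C4 and Trac, also under every other setting tried. Leaving out vehicle replicate 2 left 14 calls, PM replicate 2 left 12, and PM replicate 1 left 16, while leaving out vehicle replicate 1 gave 67.

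**Figure D3:**
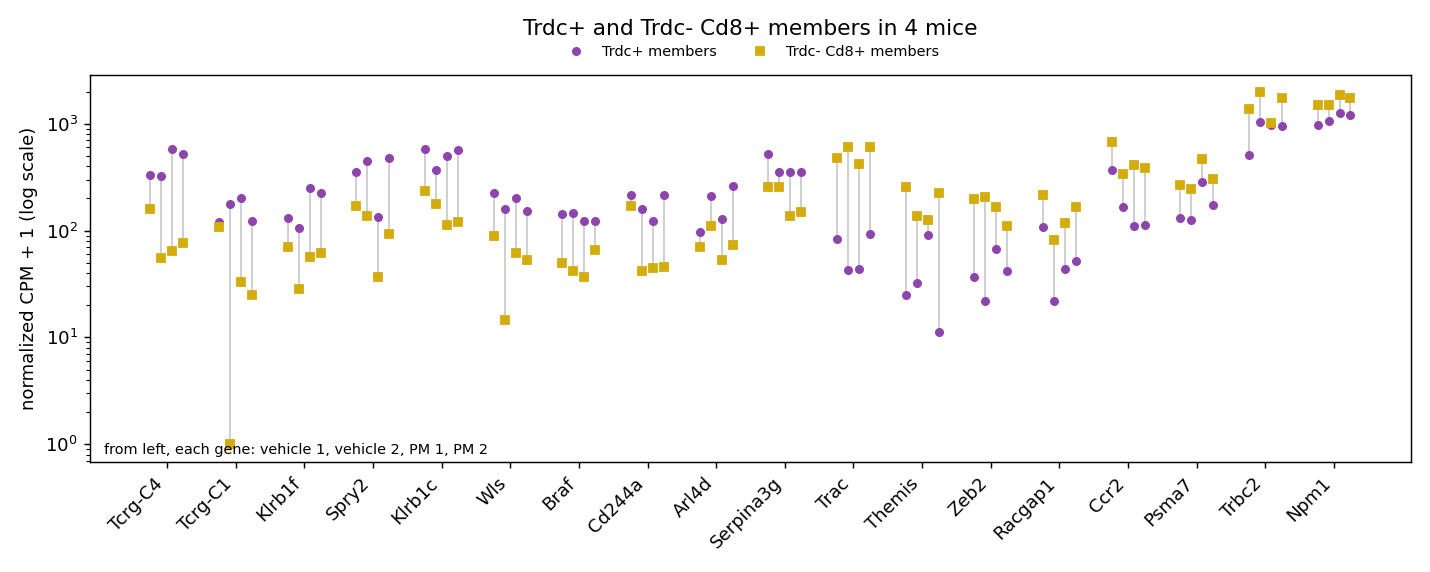
Scaled CPM plus 1 (log axis) is plotted for the named genes called between Trdc+ and Trdc- Cd8+ members, with the pairs of each gene from left to right vehicle 1, vehicle 2, PM 1 and PM 2 joined by a line. Trac is lower in the Trdc+ members of every mouse, and Tcrg-C4 and Klrb1c are higher in every mouse.

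Against Klrc1- T cells of the same mice, the members were higher in further KLR genes, γ constant genes and effector genes, and lower in genes of naive T cells and in Cd4. The naive and cytotoxic genes were not among those still called against the Klrc1- T cells with a Ccl5 UMI, set out below. Of 6859 genes tested, 102 were called higher (1.49%) and 63 lower (0.919%). The fit included the genes of the gate, and 1 of these calls was Klrc1 itself, which is no finding. Of 14 other KLR genes tested, 5 were called higher and none lower, with a median log2 fold change of 1.15 against -0.005 over all genes tested.

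Klrd1, the partner of Klrc1, stood at 707, 499, 464 and 540 scaled CPM in vehicle replicates 1 and 2 and PM replicates 1 and 2, against 301, 282, 219 and 239 in Klrc1- T cells (1.08 ± 0.10, edgeR adjusted p = 1.25e-06), with every member value above every Klrc1- value. Klrc2, the activating counterpart that shares sequence with Klrc1, stood at 535, 325, 247 and 347 against 266, 121, 58.6 and 63.3 (1.74 ± 0.23, edgeR adjusted p = 0.00898). It was higher within each mouse, although vehicle replicate 1 had more of it in Klrc1- T cells than PM replicate 1 had in the members. Klra1, an inhibitory Ly49 receptor (157 ± 44.5 against 62.7 ± 21.3), Klra3 (log2 fold change 1.18 ± 0.29) and Klrb1f (1.13 ± 0.21) completed the called KLR genes. Klrk1 (1.68 ± 0.27, adjusted p = 0.057), Klrb1c (1.52 ± 0.30, adjusted p = 0.0941) and Klre1 (1.49 ± 0.41, adjusted p = 0.333) were higher in 4 of 4 mice but missed the threshold in edgeR.

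Of 7 T cell receptor constant genes, Tcrg-C2 and Tcrg-C4 were called higher. Tcrg-C2 stood at 207, 206, 196 and 190 scaled CPM against 138, 71.9, 54.5 and 76.1 (1.35 ± 0.17, edgeR adjusted p = 5.65e-05), so the 2 sets of values did not overlap. Tcrg-C4 stood at 177 ± 25.5 against 77.2 ± 38.3 (1.38 ± 0.20). Trdc was higher in 4 of 4 mice without passing the threshold (1.31 ± 0.32, edgeR adjusted p = 0.207), and in vehicle replicate 1 its values were close, 183 against 160. Trac (-0.26 ± 0.12), Trbc1 (-0.06 ± 0.11) and Trbc2 (0.24 ± 0.08) were not called. All coreceptor genes were lower in 4 of 4 mice, and Cd4 (-3.81 ± 0.43) and Cd8a (-0.57 ± 0.14) were called, while Cd8b1 was not (-1.20 ± 0.29, adjusted p = 0.176).

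Of 21 regulators and products of memory and effector T cells, 8 were called higher and none lower. Ly6c2, a surface protein of memory CD8+ T cells, stood at 1280, 2091, 2326 and 1968 scaled CPM against 808, 911, 1377 and 1040 (0.88 ± 0.09). Il2rb, a receptor subunit for IL-2 and IL-15 (0.88 ± 0.09), Ikzf2, the transcription factor Helios (0.75 ± 0.11), Il18rap, an IL-18 receptor subunit (1.02 ± 0.12), Ifng, interferon-γ (1.15 ± 0.24), and Tbx21, the transcription factor T-bet (0.77 ± 0.20), were among them. Ccl5, a chemokine of effector T cells, was not called (0.94 ± 0.17, adjusted p = 0.0855). Of 11 cytotoxic genes, Prf1 (0.74 ± 0.18), Fasl (1.16 ± 0.24), Ctsw, Serpinb6b and Serpinb9 were called higher. Of 8 tested genes from a list of innate-like T cells, Cd160 (176 ± 48.0 against 73.6 ± 36.1 scaled CPM), Fcer1g, Cd244a and Slamf7 were called higher and Maf lower (-1.42 ± 0.20).

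Outside the lists, rises among genes with a mean of at least 50 scaled CPM included those of Arl4d, a small GTPase (95.6 ± 23.5 against 28.9 ± 22.5, 1.84 ± 0.23), Gem, a GTP-binding protein (1.56 ± 0.24), Lrrk1, a kinase (1.40 ± 0.16), and Plekha5 (1.25 ± 0.18). Of 12 genes of naive T cells and homing, 5 were called lower and none higher. Ccr7, which guides T cells to lymph nodes, stood at 13.4, 21.9, 44.3 and 61.8 scaled CPM against 29.8, 100, 160 and 122 (-1.51 ± 0.20), and Lef1 (-0.67 ± 0.14), S1pr1, Igfbp4 and Dapl1 were the others. Cd5 (-0.97 ± 0.17) and Cd6 (-0.73 ± 0.13), which restrain T cell receptor signaling, and Lat (-0.65 ± 0.12) were called lower, whereas Txk, a kinase of the same pathway, and Cd7 were called higher, of 19 signaling genes. Igf1r (-1.63 ± 0.20), Il6ra (-1.55 ± 0.19), Cybb (-1.43 ± 0.18) and the transcript Gm12840 (-1.29 ± 0.17) were further falls. Cybb had 140 UMIs in the Klrc1- T cells of vehicle replicate 2, and 8 in those of them with a Ccl5 UMI. Ngp, a neutrophil gene, had 1491 and 40 UMIs in the same cells. The part of neutrophil transcripts in the Cybb value was not tested. Ifi27l2a, an interferon-induced gene, was called lower as well (-1.18 ± 0.21).

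Neutrophil transcripts were also lower in the members, and they differed in amount between libraries. Ltf (-1.70 ± 0.15), Ngp (-1.57 ± 0.09), Lcn2 (-1.55 ± 0.18) and Cd177 (-1.60 ± 0.22) were called, and 3 of the 7 fixed neutrophil markers were lower. The summed level of these 7 markers, with S100a9 the most abundant in the members of every mouse, was 9947 and 6626 CPM in the members of the vehicle mice and 5952 and 1971 in those of the PM mice. In Klrc1- T cells it was 13585, 29606, 11107 and 9245. The plasma cell markers Igha, Jchain and Ighg2b summed to 7560 CPM in the members of PM replicate 1 and to at most 133 in the other mice, and to 18550 in the Klrc1- T cells of vehicle replicate 2 against at most 319. Without the 4 members and the Klrc1- T cells in which either list took over 5% of the UMIs, 157 genes were called, and the log2 fold changes of Lcn2 (0.076) and Ngp (0.13) no longer passed the test.

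Of the 55 named genes called against Klrc1- T cells, 12 were tested and called under every alternative tried, among them Klrd1, Klra1, Tcrg-C2, Tcrg-C4, Ly6c2, Ikzf2, Il18rap and Arl4d as higher and Cd5 and Cd6 as lower. Cd4 was called in the alternatives that tested it, and was too sparse to be tested in the others, DESeq2 and leaving out either PM mouse among them. The number of calls was 69 with DESeq2 and 47 without the mouse as a block. It fell to 93 without PM replicate 1 and to 73 without PM replicate 2. As a narrower comparison, the members were set against the 451 Klrc1- T cells with a Ccl5 UMI. There 33 genes were called, 26 higher and 7 lower, and 19 of the 52 named genes tested there remained called, including Klrc2, Klrd1, Cd160, Tcrg-C2, Tcrg-C4, Ly6c2 and Ikzf2 as higher and Cd5, Cd6 and Cd8a as lower. None of the naive and homing genes called above was among them, Ccr7 and Lef1 included. The same held for the cytotoxic genes, Prf1 and Fasl included, and for the effector genes Il2rb, Ifng and Tbx21.

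Against NK cells of the same mice, the members were higher in T cell receptor, coreceptor and T cell signaling genes, and lower in Gzma, Gzmb, Prf1 and 6 KLR genes. Of 5040 genes tested, 176 were called higher in the members (3.49%) and 95 lower (1.88%). These included 6 genes that the gates used, namely Klrc1, the Cd3 genes, Ncr1 and Klrb1c, which are no finding.

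Of 7 constant genes, 6 were called higher. Trac stood at 294, 255, 275 and 370 scaled CPM in vehicle replicates 1 and 2 and PM replicates 1 and 2, against 17.5, 0, 8.37 and 0 in NK cells (5.60 ± 0.39). Trdc stood at 198, 414, 332 and 242 against 26.3, 101, 62.8 and 75.1 (2.15 ± 0.22, edgeR adjusted p = 1.11e-07). Tcrg-C2 (5.56 ± 0.45), Tcrg-C1 (5.28 ± 0.67), Tcrg-C4 (1.83 ± 0.23) and Trbc2 (2.63 ± 0.18) were called as well, while Trbc1 was not (0.01 ± 0.18). Trbc1 had a UMI in 75.6% of NK cells, and 30.6% of its transcript windows are shared with Trbc2. Cd8b1 had 269 UMIs in the members and none in NK cells, at least 32.5-fold higher by a limit of 3 UMIs over all NK cells. Cd8a was higher (5.96 ± 0.47).

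Of 19 genes of T cell signaling, 11 were called higher and none lower, for example Cd6 (4.78 ± 0.51), Thy1 (1.86 ± 0.16), Lat (1.75 ± 0.25), Cd28 (1.74 ± 0.24) and Lck (0.71 ± 0.17). Cd5, with 113 UMIs in the members and none in NK cells, was at least 13.7-fold higher, and Themis, with 161 against none, at least 19.5-fold. Bcl11b, the transcription factor that holds T cells to their lineage (366 ± 74.9 against 30.3 ± 22.3 scaled CPM), Ikzf2 (2.29 ± 0.20), Cxcr6, a receptor of tissue-resident lymphocytes (2.83 ± 0.24), and Il7r, the IL-7 receptor (1.38 ± 0.21), were higher too. Slfn1 (4.59 ± 0.42), a gene of lymphocyte quiescence, Nsg2 (4.34 ± 0.48), Gramd3 (3.35 ± 0.28) and Tent5c (3.26 ± 0.44) were further rises.

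Cytotoxic genes went mostly the other way, with 5 of 10 lower and 1 higher. Gzma stood at 116, 27.2, 23.4 and 30.2 scaled CPM in the members against 3276, 3999, 3139 and 3393 in NK cells (-6.33 ± 0.60, edgeR adjusted p = 0.0233). The call of Gzma was lost without vehicle replicate 2 (adjusted p = 0.126), without PM replicate 1 (0.155), without PM replicate 2 (0.155) and without the filter on low counts (0.0623), at log2 fold changes of -6.10 or below. Gzmb (39.8 ± 14.7 against 205 ± 43.4, -2.44 ± 0.25) and Prf1, perforin (-2.20 ± 0.19), were lower, while Gzmm, granzyme M, was higher (3.35 ± 0.54). Of 14 KLR genes tested, 6 were lower, such as Klra9 (42.8 ± 16.2 against 264 ± 75.6) and Klrb1a (-2.62 ± 0.37), and Klra1 was higher (1.25 ± 0.25). Klra4, which encodes the activating receptor Ly49D, stood at 66.9, 3.39, 10.9 and 1.89 against 640, 1251, 929 and 798 without passing the threshold in edgeR (-5.69 ± 1.02, adjusted p = 0.107). Klrd1 (-0.46 ± 0.15) and Klrc2 (-0.53 ± 0.17) were not called. The adaptor genes Tyrobp (-2.08 ± 0.17) and Fcer1g (-1.19 ± 0.17) and the regulators Eomes (-0.80 ± 0.18), Tbx21 (-0.86 ± 0.21) and Zeb2 (-1.93 ± 0.21) were lower.

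Adamts14 (4.99 ± 3.90 against 162 ± 30.1), Styk1 (-3.94 ± 0.37), Cbfa2t3 (-2.85 ± 0.37), Syk, a kinase that NK receptors use (-2.51 ± 0.28), and the transcript Gm36723 (-2.91 ± 0.56) were further falls. Dntt, an enzyme of lymphoid progenitors, was lower as well (-5.50 ± 0.57), with 179 ± 232 scaled CPM in NK cells and its highest value, 526, in the 21 NK cells of vehicle replicate 1. Of the 73 named genes called against NK cells, 52 were tested and called whichever mouse was left out, and 46 under every setting tried. Cd5, Gzmm and Tcrg-C1 were not tested without PM replicate 1. DESeq2 called 155 genes in place of 271. The neutrophil markers summed to 67345 CPM in the NK cells of vehicle replicate 1 and to at most 8273 in those of the other mice. Without the cells rich in neutrophil or plasma cell transcripts, 277 genes were called, and all 73 named genes remained called.

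The next question was whether the share of Klrc1+ T cells differed after PM treatment. Among gated T cells it was 50.3% and 42.6% with vehicle and 30.7% and 35.2% after PM (46.4% ± 5.44 against 32.9% ± 3.21, SD, n = 2 each), lower by 13.5 percentage points. Both PM mice lay below both vehicle mice, with an exact permutation p of 0.333, the smallest possible. Among all kept cells, the order was turned around, with 0.939% and 0.882% with vehicle and 1.20% and 1.36% after PM (0.911% ± 0.0408 against 1.28% ± 0.116). The PM values were again apart from the vehicle values at the same smallest p. Klrc1- T cells went from 0.929% and 1.19% of kept cells to 2.70% and 2.50%. The lower share among T cells thus came with a larger difference in Klrc1- T cells and not with a lower share of Klrc1+ T cells in the marrow. A share depends on all other cells of the marrow, and numbers of cells per bone were not measured.

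NK cells, which the T cell gate leaves out, took 0.227% and 0.498% of kept cells with vehicle and 0.545% and 0.507% after PM. With every cell thinned to 1500 UMIs, the difference among gated T cells was -12.2 percentage points, and the difference among kept cells was 0.0782 in place of 0.367 percentage points, each with 1 of 4 pairs of mice in the other direction. Without the limit on neutrophil transcripts, the difference among gated T cells was -7.90 percentage points, again with 1 pair in the other direction.

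**Figure D4:**
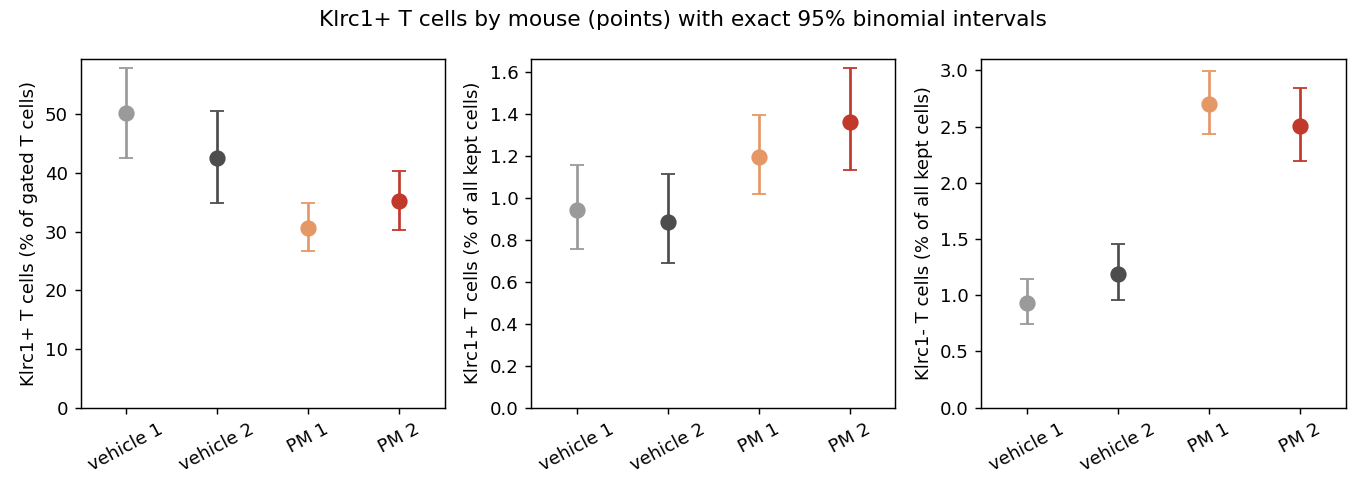
The panels plot, for each mouse, Klrc1+ T cells as a share of gated T cells (%), Klrc1+ T cells as a share of all kept cells (%) and Klrc1- T cells as a share of all kept cells (%), with exact 95% binomial intervals that cover counting error only. PM mice lie below vehicle mice in the first panel, 30.7% and 35.2% against 50.3% and 42.6%, and above them in the other panels.

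Within the Klrc1+ T cells, no gene passed the test between PM and vehicle. Of 6874 genes tested, edgeR called 0 higher (0%) and 0 lower (0%), and DESeq2 called 0 too. At an unadjusted p under 0.05, edgeR had 219 genes higher and 207 lower, and DESeq2 41 and 46. The smallest adjusted p in edgeR was 0.355. Calls appeared under some settings: 28 without the filter on low counts, 19 without cells that carry B cell or myeloid markers, and between 8 and 54 when a mouse was left out, the most without PM replicate 2. Leaving out a mouse leaves 1 mouse in its group, which is then assumed to vary like the 2 of the other group. The values below are therefore given without a direction of change.

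Cd8b1 had the lowest p of the named genes. It stood at 51.0 and 53.0 scaled CPM with vehicle and 130 and 244 after PM (1.83 ± 0.33, adjusted p = 0.355 in edgeR). It was called higher without the filter on low counts (edgeR adjusted p = 9.53e-08), without cells that carry B cell or myeloid markers (0.000885) and with the replicate number as a block (0.032), but not with DESeq2 (adjusted p = 0.484), without either vehicle mouse, with other size factors, with at least 2 Klrc1 UMIs or without cells rich in neutrophil or plasma cell transcripts. It also passed with PM replicate 2 alone (8.92e-09) or PM replicate 1 alone (0.0213) against both vehicle mice, where the spread comes from the vehicle mice only. Over the alternatives its log2 fold change ran from 1.34 to 2.24. Cd8a stood at 174 and 134 against 176 and 249 (0.45 ± 0.23). In UMIs, Cd8b1 was counted in 9.20% and 15.9% of the members of the vehicle mice and in 23.1% and 34.9% of those of the PM mice. The groups did not overlap for Cd8b1, and for Cd8a they overlapped in unscaled CPM, where vehicle replicate 1 stood above PM replicate 1.

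Of the other receptor genes, Trdc stood at 182 and 381 scaled CPM against 305 and 220 (-0.09 ± 0.33), Klrd1 at 705 and 499 against 466 and 541 (-0.26 ± 0.21), and Klrc2 at 534 and 324 against 248 and 347 (-0.54 ± 0.24). Of 14 KLR genes tested, 3 had a positive log2 fold change, with a median of -0.26 against 0.003 over all genes. Of 11 cytotoxic genes, 3 were positive, with a median of -0.11, and Prf1 stood at 118 and 87.4 against 102 and 127. Of 8 genes of innate-like and IL-17 regulation tested, 2 were positive, with a median of -0.45. Fcer1g stood at 367 and 365 against 260 and 185 scaled CPM (-0.71 ± 0.20, adjusted p = 0.647), without overlap.

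Lists of genes that respond to interferon, stimulation or division were described in the same way. Of 26 type I interferon response genes tested, 23 had a positive log2 fold change, with a median of 0.39, which ranged from 0.28 to 0.69 over the alternatives. Summed, the list stood at 2763 and 2055 CPM with vehicle and 3083 and 2873 after PM. Samhd1, a nucleotide hydrolase of antiviral defense, stood at 346 and 268 against 391 and 381 scaled CPM, while Ifi203 stood at 440 and 346 against 416 and 349. No gene of the list was called.

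Of 13 AP-1 and early response genes, 1 had a positive log2 fold change, with a median of -0.41. Their sum stood at 7804 and 5229 CPM against 3128 and 5558, so the groups overlapped, and PM replicate 1 was the lowest. Junb, an AP-1 subunit, stood at 1244 and 1104 scaled CPM against 264 and 872. Of 8 residency genes, 1 was positive, with a median of -0.47, and Cd69, an early activation and retention marker, stood at 330 and 303 against 189 and 239. Of 16 cell cycle genes, 3 were positive, with a median of -0.43, and Hmgb2 stood at 1102 and 870 against 608 and 750. Of 12 genes on a list of deacetylase genes that also held the linker histone gene H1f0, 7 could be tested. Of these, 4 had a positive log2 fold change, with a median of 0.30. Hdac2 stood at 45.6 and 40.6 against 74.6 and 77.3 (0.81 ± 0.29, adjusted p = 0.712) and Hdac1 at 113 and 68.6 against 128 and 99.6, while Hdac4 stood at 121 and 125 against 81.7 and 120. Of 11 genes of survival and death tested, 4 were positive, with a median of -0.12. Bcl2, which protects from apoptosis, stood at 1137 and 1173 against 1516 and 1379 (0.33 ± 0.18), and Bcl2l11, which promotes apoptosis, at 397 and 209 against 237 and 223 (-0.41 ± 0.25).

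Of 10 genes on the checkpoint list, which held Tox and Entpd1 beside receptor genes, 5 were too sparse to be tested. Of the other 5, 2 had a positive log2 fold change, with Tnfrsf9, which encodes 4-1BB, at 48.3 and 21.8 scaled CPM against 33.0 and 27.5, and Tox at 91.2 and 119 against 54.5 and 99.6. Of 6 anergy genes, 4 could be tested and 1 was positive, with a median of -0.17. Cblb, a ubiquitin ligase of T cell tolerance, stood at 276 and 187 against 152 and 156 (-0.60 ± 0.22, adjusted p = 0.73 in edgeR). Itch (-0.22 ± 0.21) and Nedd4 (0.21 ± 0.28), which encode other ubiquitin ligases, stood at 180 and 159 against 162 and 129 and at 93.9 and 99.8 against 138 and 84.1. Beside all values after PM, 1 of 7 neutrophil markers had a positive log2 fold change (median -0.92, none called), and the plasma cell markers were high in PM replicate 1. Summed B cell markers stood at 7.98 and 44.8 CPM with vehicle and 160 and 45.4 after PM. Of 4 erythroid markers, 0 had a positive log2 fold change (median -1.11, none called). Without the cells rich in neutrophil or plasma cell transcripts, 0 genes were called.

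**Figure D5:**
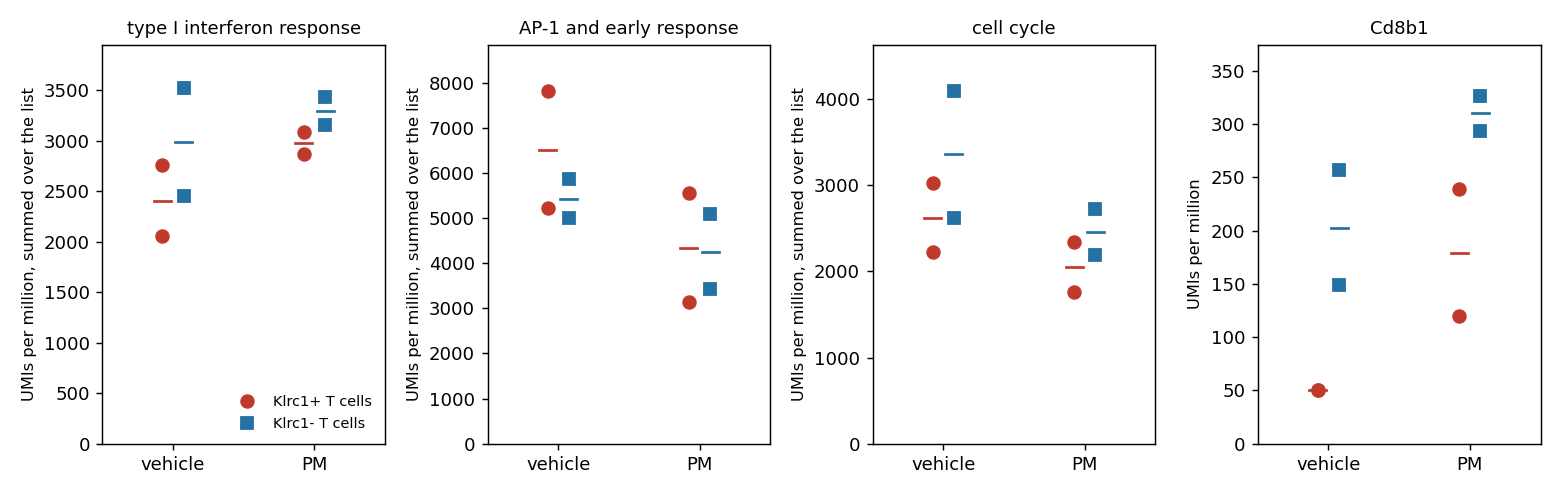
Summed CPM (unscaled) of the type I interferon response, AP-1 and early response, and cell cycle lists, and CPM of Cd8b1, are plotted for Klrc1+ T cells and Klrc1- T cells by mouse, with a line at the mean of each group (n = 2). In the Klrc1+ T cells the interferon sums of both PM mice, 3083 and 2873, lie above those of both vehicle mice, and the AP-1 sums overlap.

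The response of the members to PM was also set against that of Klrc1- T cells, as the difference of the log2 fold changes in 1 fit. Of 7681 genes tested, 1 was called with a higher response in the members (0.013%) and 1 with a lower one (0.013%). They were Klre1, a KLR gene of NK cells, and Car1, a carbonic anhydrase of red cells. At an unadjusted p under 0.05, 217 genes were higher and 183 lower. Both calls were lost without either PM mouse, and both without the cells rich in neutrophil or plasma cell transcripts. Of 17 KLR genes tested in this fit, 14 had a positive difference, with a median of 0.79 against 0.004 over all genes, and of 11 cytotoxic genes all had one, with a median of 0.54, yet Klre1 alone was called. The Klrc1- T cells themselves differed between the groups. Their summed naive and homing genes stood at 2187 and 3098 CPM with vehicle and 3968 and 4382 after PM. Their summed KLR genes stood at 2352 and 1432 against 739 and 966. The part of the make-up of the Klrc1- T cells in these differences was not tested.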

How the data were processed

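Libraries were made with the 10x Genomics Chromium Single Cell 3′ kit v3.1. The authors aligned reads and made the deposited raw UMI count matrices with Cell Ranger 6.0.1 on a GRCm38 reference; strand and exon settings are not given in the sources used here. Genes were named as in the files, and positions came from GENCODE M21 (GRCm38). Barcodes numbered 9516 and 8242 (vehicle) and 13848 and 9787 (PM), and total UMIs 86052982, 69828595, 109447030 and 74388936. The limits stated in the study's methods (300 genes, 20% mitochondrial UMIs) left 9261, 7826, 13387 and 9269 cells, in both groups more than the study says it retained, so the cells used here are not exactly its cells. Libraries shared 18 to 41 barcodes, at most 0.431% of the smaller. No doublet caller was run, and cells with markers of other types were left out as an alternative instead.

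The members and gene lists were chosen with earlier results of these data known. Counts were summed by cell class and mouse and tested with edgeR 4.0.16 in R 4.3.3 (TMM, filterByExpr, robust quasi-likelihood, Benjamini-Hochberg), calling an adjusted p under 0.05 with a log2 fold change beyond 0.5, and with DESeq2 1.42.0 as an alternative. Comparisons of classes within mice had the mouse as a block. Standard errors were taken from the F statistic. Shares were compared by exact two-sided permutation tests (scipy 1.17.1) and given with exact Clopper-Pearson intervals. Named genes were all receptor constant, coreceptor and KLR genes, the 4 most abundant tested members of each other list, and, in each fit, the 10 largest rises and falls among called genes with a mean of 50 CPM or more that went one way in every mouse, leaving out gate, immunoglobulin, mitochondrial, hemoglobin and variable receptor genes. Other list members are named where they were called. Some genes that the rule names are not reported here. Fits were tested on simulated data. Other settings were the Klrc1 and Cd3 limits, the neutrophil limit, stricter cell filters, thinning to 1500 UMIs, cells with other markers, size factors, no filter on low counts, and leaving out each mouse. The 2 alternatives chosen after seeing the data were without cells in which neutrophil or plasma cell markers took over 5% of the UMIs, and Klrc1- T cells with Ccl5 as comparison. The settings for the Trdc- Cd8+ share and for the share with Trdc or a Tcrg-C gene were also added after seeing the data.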

Additional observations from a re-analysis of the deposited data

Results flagged for a closer look

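The response to PM differed between Klrc1+ and Klrc1- T cells for 2 genes by the test of the difference itself (edgeR, adjusted p 0.0307 for Klre1 and 0.00649 for Car1). For Klre1 the difference of the log2 fold changes was 1.52 ± 0.24. Its level was 329 ± 160 scaled CPM in the members of the vehicle mice and 265 ± 55.2 in those of the PM mice (SD, n = 2), and 201 ± 84.5 and 56.7 ± 10.6 in Klrc1- T cells. For Car1 the difference was -6.99 ± 0.90. Its level was 17.9 ± 12.3 and 4.66 ± 0.62 scaled CPM in the members, and 3.84 ± 1.68 and 145 ± 93.2 in Klrc1- T cells. DESeq2 called Car1 alone. The 4 hemoglobin genes of the marker list summed in Klrc1- T cells to 73.1 and 3157 CPM (unscaled) with vehicle and to 1955 and 573 after PM, and the part of red cell transcripts in the Car1 value was not tested. Neither call remained without PM replicate 1 or without PM replicate 2, fits that hold 1 PM mouse.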

How the results depend on the processing

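The shares of Klrc1+ T cells among gated T cells and among kept cells kept their direction under every setting, from -7.90 to -17.4 and from 0.0782 to 0.479 percentage points, leaving out a mouse included (-9.67 to -17.4 and 0.285 to 0.449). The difference in the Trdc+ share turned positive with at least 2 Klrc1 UMIs (2.30) and with thinning (4.37), and ran from -13.4 to 4.50 when a mouse was left out. The Trdc- Cd8+ share stayed higher after PM on average (6.61 to 22.6 points) and the share with Trdc or a Tcrg-C gene lower (-1.91 to -12.5), but the groups overlapped with at least 2 Klrc1 UMIs and with thinning, and for the latter with the stricter cell filter. In the tests between PM and vehicle and of the difference of responses, leaving out a mouse leaves 1 mouse in its group, assumed to vary like the others. Calls between PM and vehicle were 28 without the filter on low counts, 19 without cells of other markers, and 8 to 54 with a mouse left out. With the replicate number as a block there were 4 calls. Deviations of same-numbered mice were not correlated (r = -0.02 over 6874 genes). With 1 deviation per group, this cannot decide whether same-numbered mice were handled together. A figure caption of the study speaks of 2 independent experiments, and the sample labels do not assign the mice to them. Calls against Klrc1- T cells were 69 with DESeq2, 299 without the filter, 47 without the mouse block, 33 against Ccl5+ cells and 73 to 242 with a mouse left out, and Lcn2 (0.076) and Ngp (0.13) turned positive without the cells rich in neutrophil or plasma cell transcripts, as did Ngp against Ccl5+ cells (0.13). Calls against NK cells were 155 with DESeq2, 450 without the filter and 202 to 397 with a mouse left out. Calls between Trdc+ and Trdc- Cd8+ members were 8 with DESeq2, 58 without the filter, 44 without cells of other markers, 46 without cells rich in neutrophil or plasma cell transcripts, 15 without the mouse block and 12 to 67 with a mouse left out. Calls in the difference of responses were 1 with DESeq2, 23 without the filter, 5 with at least 2 Klrc1 UMIs, 18 without cells of other markers, 0 without the cells rich in neutrophil or plasma cell transcripts and 0 to 81 with a mouse left out. The causes of these shifts were not tested. With 2 mice a group, a single mouse decided many calls, and the 69 to 160 members per mouse limit what low genes can show.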
